A study of Mus musculus with 6 samples.

Results

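The 9 genes of the Fanconi anaemia and homologous recombination pathways described here are Fanca, Fancb, Fancl, Fancm, Fanci, Fancd2, Brca1, Palb2 and Brca2. They were picked by symbol from a table of 51912 Ensembl genes, with their values in these libraries already known, and all 9 were found in it. That choice rested on the comparison of the genotypes itself, in which Fancb had been noted as lower, so the differences between genotypes are given for these genes as a description and support nothing. RNA was read by Smart-Seq2, an amplification of full-length cDNA from small amounts of RNA, in testis cells of C57BL/6J mice on postnatal day 4, sorted as THY1+ and c-KIT- to enrich spermatogonial stem cells. There were 3 wild type libraries and 3 libraries from Bud31-vKO mice, in which the spliceosome gene Bud31 was removed with Cre and loxP. The promoter that drives Cre, the number of cells in a library and whether the libraries came from separate animals are not given in the labels, so p-values measure only the spread between these samples, part or all of which may be technical. The table heads its columns C1 to C3 and T1 to T3, which were read as wild type and Bud31-vKO. Values per library are always listed in the order 1, 2, 3.

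A covalent link between the strands of DNA blocks a replication fork. The Fanconi anaemia core complex, which holds FANCA, FANCB and the ubiquitin ligase subunit FANCL and is brought to the fork by FANCM, then attaches ubiquitin to the FANCI-FANCD2 pair. The modified pair allows the lesion to be cut out, and the resulting break is mended by homologous recombination, in which BRCA1 brings in PALB2, PALB2 holds BRCA2, and BRCA2 prepares the single-stranded end to pair with an intact copy. In mice, loss of Fanconi anaemia genes is known to leave few germ cells, since primordial germ cells divide fast and depend on this repair.

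Library totals ran from 13240704 to 18744466 reads. Genes with at least 1 read numbered 22300, 18171 and 13762 for wild type and 20286, 12464 and 18997 for Bud31-vKO, so wild type library 3 and Bud31-vKO library 2 stood apart with few genes. Bud31 itself stood at 137, 96.2 and 157 CPM for wild type (CPM are reads scaled to a common library size with TMM factors) and at 46.9, 67.2 and 79.9 CPM for Bud31-vKO, with no overlap. Germ cell markers (Ddx4, Dazl, Mael, Dnd1, Sall4, Zbtb16, Gfra1, Uchl1 and Tex101) were present in all 6 libraries, and their sum was 3180 to 3880 CPM in wild type and 1730 to 2470 CPM in Bud31-vKO. Sertoli cell markers summed to 125 to 433 CPM in wild type and to 125 to 1640 CPM in Bud31-vKO, highest in Bud31-vKO library 1, and lymphocyte markers to 12.6 to 92.9 CPM against 79.0 to 515 CPM, highest in Bud31-vKO library 2. The part of cell composition in the values below was not tested, and in such bulk libraries fewer cells of a type cannot be told apart from less RNA per cell.

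In the quasi-likelihood test of edgeR, with Benjamini-Hochberg adjustment over 15240 genes, 0 of the 9 genes were called, the adjusted p of each being 0.9997. The background was 0% called lower and 0% called higher, with 278 genes lower (1.82%) and 165 higher (1.08%) at an unadjusted p under 0.05. At that level 2 of the 9 were lower, Fancb and Fancd2, and 0 were higher, which is a description only. Of the 9 genes, 7 had a log2 fold change (Bud31-vKO against wild type) below 0 and 2 above, with a median of -0.88, where 48.9% of all tested genes lay below 0 and their median was 0.02. Without wild type library 3 that median of the 9 was -0.31, and without Bud31-vKO library 2 it was -0.34. All 9 passed the filter on low counts, Fancb through the wild type libraries alone.

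Fancb, a subunit of the core complex that is encoded on the X chromosome, was nearly absent from the Bud31-vKO libraries. It had 141, 225 and 279 reads per library for wild type but only 1, 0 and 2 for Bud31-vKO. The levels were 10.2, 12.3 and 16.1 CPM for wild type (12.9 ± 3.0, SD, n = 3) and 0.0726, 0 and 0.147 CPM for Bud31-vKO (0.0732 ± 0.0735, SD, n = 3). Each Bud31-vKO library was thus at or under the floor of 3 reads, 0.213 to 0.220 CPM there, and the groups did not overlap. Fancb was the 1 gene of the 9 for which every Bud31-vKO value lay under every wild type value, a pattern met by 6.39% of all genes tested.

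Over the group, 645 reads in wild type stood against 3 reads in Bud31-vKO, a ratio of 181 with an exact 95% interval of 61.6 to 879. That interval covers counting error only, and amplified reads are not independent molecules. The fit gave a log2 fold change of -7.31 (standard error 2.0), a value that depends on the prior count at such low reads, and it ranged from -8.19 to -6.57 over the alternatives. DESeq2, tried as an alternative, called Fancb with an adjusted p of 0.0016, as 1 of 30 genes lower (0.2%), beside 17 higher (0.114%), and called no other of the 9. Fancb had already been noted as lower in this contrast and passed the filter through the wild type libraries alone. That call and the interval above therefore describe the values behind its choice and test nothing. Over the other alternatives the adjusted p of Fancb lay between 0.7533 and 1. As a description of the table, of 8181 genes with at least 100 reads in every wild type library, 7 (0.0856%) had at most 3 reads in every Bud31-vKO library, and of 7319 genes with at least 100 reads in every Bud31-vKO library, 3 (0.041%) had at most 3 in every wild type library. The limit of 100 reads was chosen after the values of Fancb were seen, has no upper bound, and so takes in far more abundant genes, and nothing is read from these counts.

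Fancb (ENSMUSG00000047757) is on chromosome X, plus strand, from 164980592 to 164997272 in GRCm38. Its largest transcript model has 9 exons, the fewest of the 9 genes, whose largest models have up to 44, against a median of 7 over 21793 protein-coding genes. Its exons overlap those of no other annotated gene. The start of Mospd2, which encodes a protein at contacts between membranes, lies 217 bases away on the opposite strand, head to head with Fancb. Mospd2 had 12.9, 5.38 and 21.1 CPM for wild type and 16.8, 0 and 19.7 CPM for Bud31-vKO. It lay within its wild type range in Bud31-vKO libraries 1 and 3, where Fancb had 1 and 2 reads, and had no read in Bud31-vKO library 2.

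The 250 bases before the start are shown for Fancb, beside Fancm and Brca1, which hold the same pair of short words but were not near 0 in any library, and beside Brca2, the single promoter of the set with an E2F word. They are RefSeq sequences of GRCm38.p6, written 5′ to 3′ toward the gene, and capitals mark the words found on either strand.
Fancb (chrX:164980342-164980591, plus strand): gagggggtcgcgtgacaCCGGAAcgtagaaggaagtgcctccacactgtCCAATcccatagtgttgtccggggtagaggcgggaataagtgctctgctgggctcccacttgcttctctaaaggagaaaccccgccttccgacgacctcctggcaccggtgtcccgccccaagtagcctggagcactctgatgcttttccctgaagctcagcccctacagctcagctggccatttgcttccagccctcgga
Fancm (chr12:65075353-65075602, plus strand): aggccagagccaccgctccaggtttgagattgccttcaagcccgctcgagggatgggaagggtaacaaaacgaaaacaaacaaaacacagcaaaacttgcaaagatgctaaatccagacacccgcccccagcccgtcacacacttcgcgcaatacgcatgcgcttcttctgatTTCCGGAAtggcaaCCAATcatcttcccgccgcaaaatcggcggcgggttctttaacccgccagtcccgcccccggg
Brca1 (chr11:101551956-101552205, minus strand): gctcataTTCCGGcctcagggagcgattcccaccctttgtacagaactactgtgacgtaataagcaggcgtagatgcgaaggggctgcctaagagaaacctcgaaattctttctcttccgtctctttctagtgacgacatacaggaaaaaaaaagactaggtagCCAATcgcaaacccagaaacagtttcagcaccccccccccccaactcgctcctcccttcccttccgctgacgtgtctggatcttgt
Brca2 (chr5:150522371-150522620, plus strand): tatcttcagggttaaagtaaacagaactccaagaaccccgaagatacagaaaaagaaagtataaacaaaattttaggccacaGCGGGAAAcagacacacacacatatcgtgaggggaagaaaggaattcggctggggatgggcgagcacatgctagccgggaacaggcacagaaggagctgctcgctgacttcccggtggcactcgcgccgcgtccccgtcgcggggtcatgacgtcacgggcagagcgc
Entries were found for 8 of the 9 genes, without Fancd2. RefSeq starts were not always those of the gene coordinates given in this report. The windows of Fancl (26386834 to 26387083) and Fanci (79392088 to 79392337) lie inside those coordinates. That of Palb2 (122132947 to 122133196) overlaps the 5′ end of its gene. The counts below include these windows. The words searched on both strands were CCAAT, the ETS core CCGGAA, the cell cycle element TTTGAA and the E2F words TTTGGCGC, TTTCCCGC, TTTCGCGC and TTTGCCGC. CCAAT was present in 4 of 8 (Fanca, Brca1, Fancm and Fancb) and in 33.8% of 32817 RefSeq promoter windows of that length, and CCGGAA in 4 of 8 (Palb2, Brca1, Fancm and Fancb) and in 12% of all. In Fancm the forward and reverse forms of CCGGAA overlap. TTTGAA was in 0 of 8 against 16%, and an E2F word in 1 of 8 (Brca2) against 1.86%. These matches are letters in a window and not shown sites of binding.

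**Figure D1:**
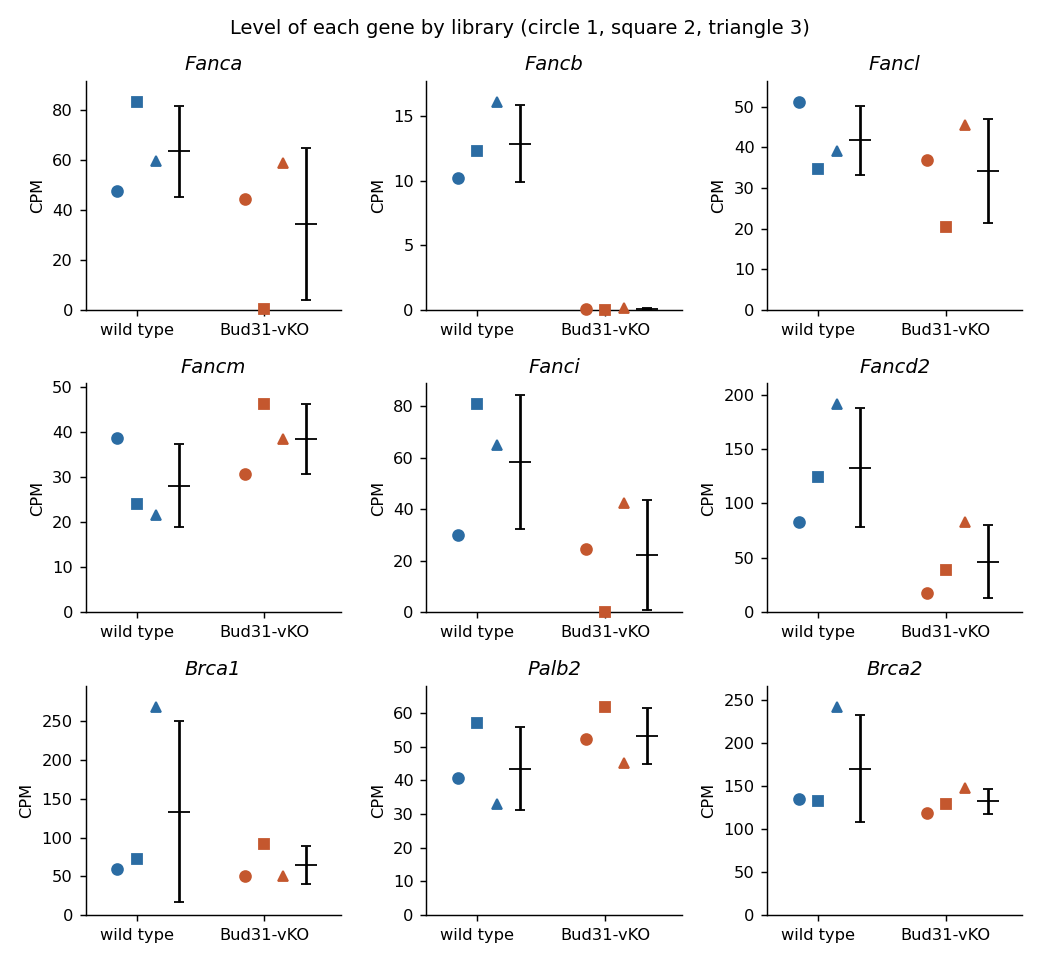
Level in CPM (y axis, linear, each panel with its own scale) of the 9 genes in wild type (blue) and Bud31-vKO (orange) libraries, with the mean and SD of each group of 3 in black. Fancb stays between 0 and 0.147 CPM in the Bud31-vKO libraries, while the groups of the other 8 genes overlap.

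The other core complex genes kept reads in most libraries. Fanca, a large subunit of the complex, gave 47.5, 83.2 and 59.5 CPM for wild type and 44.2, 0.284 and 58.8 CPM for Bud31-vKO. The groups overlapped, and Bud31-vKO library 2, with 4 reads, stood far under the rest. Its log2 fold change was -0.88 (standard error 1.28), and -0.29 without that library. Fancl, the subunit with ligase activity, measured 51.2, 34.8 and 39.1 CPM for wild type and 36.8, 20.3 and 45.6 CPM for Bud31-vKO (41.7 ± 8.51 and 34.3 ± 12.8, SD, n = 3 each). The ranges of Fancl overlapped, with a log2 fold change of -0.28 (standard error 0.61) that was -0.01 without Bud31-vKO library 2. Fancm, a DNA translocase that anchors the complex at the fork, was at 38.8, 24.1 and 21.6 CPM for wild type and at 30.7, 46.2 and 38.4 CPM for Bud31-vKO, and its highest library was Bud31-vKO library 2. It had a log2 fold change of 0.45 (standard error 0.64), 1 of the 2 above 0 in the set, and of 0.15 in the 4 libraries left without wild type library 3 and Bud31-vKO library 2.

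Fanca lies on chromosome 8 from 123268300 to 123318576 (minus strand), Fancl on chromosome 11 from 26386135 to 26471876 (plus strand) and Fancm on chromosome 12 from 65075603 to 65132058 (plus strand). Exons of Zfp276 cover 10.5% of the exon bases of Fanca, and those of Vrk2 cover 13.7% of Fancl, each on the opposite strand, so reads there cannot be told apart unless strand was used in counting. Zfp276 was counted at 0.588 to 16.6 CPM and Vrk2 at 0.231 to 11.9 CPM over the 6 libraries. The genes that overlap Fancm, Gm47870 and Gm47869, had no reads.

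FANCI and FANCD2 form the pair to which the core complex attaches ubiquitin. Fancd2 had levels of 82.9, 124 and 191 CPM for wild type and 18.2, 38.9 and 83.0 CPM for Bud31-vKO (133 ± 54.3 and 46.7 ± 33.1, SD, n = 3 each). Its groups met at a single point, the highest Bud31-vKO library lying just above the lowest wild type library. The log2 fold change was -1.51 (standard error 0.62), and lay between -2.22 and -1.10 as each library was left out. Fanci had 29.9, 80.6 and 64.8 CPM for wild type and 24.5, 0 and 42.2 CPM for Bud31-vKO. Bud31-vKO library 2 held no read of Fanci, which allows up to 0.213 CPM (3 reads), while libraries 1 and 3 lay within or just under the wild type range. Its log2 fold change of -1.40 had a standard error of 1.58 and was -0.80 without Bud31-vKO library 2.

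Fancd2 lies on chromosome 6 from 113531682 to 113597017 and Fanci on chromosome 7 from 79391929 to 79450264, both on the plus strand. Exons of Polg, the mitochondrial DNA polymerase gene, cover 16% of the exon bases of Fanci on the opposite strand. Polg was counted at 46.4 CPM in Bud31-vKO library 2, where Fanci had no read, and at 15.5 to 52.9 CPM over all libraries. Emc3, a subunit gene of a membrane protein insertion complex, starts 30 bases from Fancd2 in the opposite direction. It measured 213, 380 and 343 CPM for wild type and 141, 502 and 253 CPM for Bud31-vKO, where the ranges overlapped and the log2 fold change was -0.06 (standard error 0.48).

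The groups overlapped for each of the 3 recombination genes, and 1 library held much of the Brca1 difference. Brca1, a ubiquitin ligase and scaffold, stood at 59.0, 72.7 and 269 CPM for wild type and at 50.3, 92.2 and 49.8 CPM for Bud31-vKO. Wild type library 3 stood apart from the other 5, which overlapped. The log2 fold change of -1.06 (standard error 0.65) was -0.01 without that library. Brca2, the large partner of PALB2, measured 135, 133 and 242 CPM for wild type and 119, 129 and 148 CPM for Bud31-vKO, again highest in wild type library 3, and was the most evenly counted of the 9 genes within Bud31-vKO (132 ± 14.3 CPM, SD, n = 3). Its log2 fold change of -0.37 (standard error 0.36) was -0.01 without wild type library 3. Palb2, the bridge between the other two, was at 40.6, 57.0 and 32.9 CPM for wild type and at 52.3, 61.9 and 45.2 CPM for Bud31-vKO, with overlapping ranges and a log2 fold change of 0.29 (standard error 0.51).

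Brca1 lies on chromosome 11 from 101488764 to 101551955 and Palb2 on chromosome 7 from 122107262 to 122132985, both on the minus strand, and Brca2 on chromosome 5 (150522630 to 150570329, plus strand). Nbr1, an autophagy receptor gene, starts 194 bases from Brca1 in the opposite direction. It too was highest in wild type library 3, at 129, 169 and 311 CPM for wild type and 179, 116 and 103 CPM for Bud31-vKO. Dctn5, a dynactin subunit gene, starts 56 bases from Palb2 and had 85.9, 140 and 152 CPM for wild type and 67.0, 0.709 and 63.3 CPM for Bud31-vKO. In Bud31-vKO library 2, where Palb2 reached its highest level, Dctn5 was close to its floor.

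**Figure D2:**
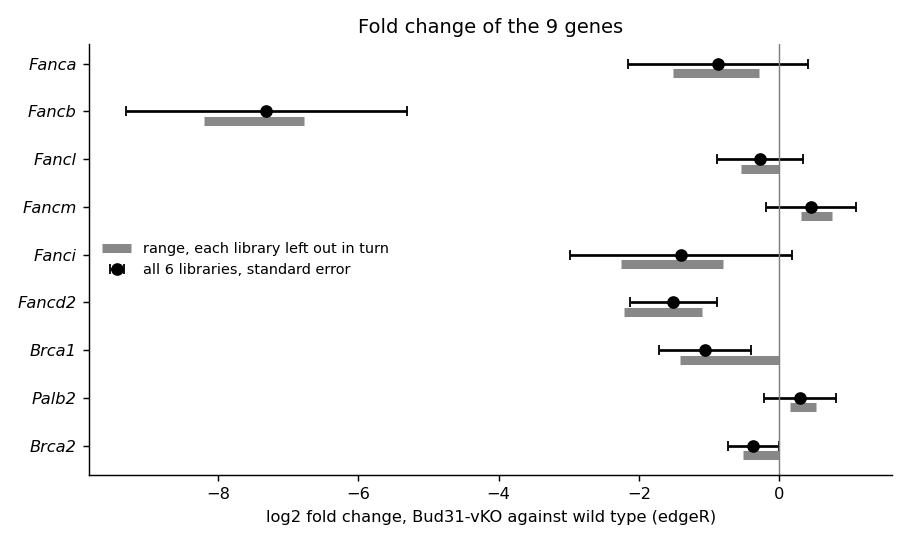
Log2 fold change of each gene, Bud31-vKO against wild type (x axis), with its standard error (black, edgeR, 6 libraries) and the range when each library was left out in turn (grey). Fancb lies at -7.31, and the other 8 genes lie between -1.51 and 0.45.

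Levels were also compared between the 9 genes per kilobase of the longest transcript. In wild type the order of mean CPM per kb was Fancd2 (24.1), Brca1 (20.3), Brca2 (15.9), Fancl (15.3), Fanca (14.1), Fanci (12.6), Palb2 (11.6), Fancb (4.33) and Fancm (3.60). Neighbours in that order overlapped over the 3 libraries in each case but 1, the step from Palb2 (8.76 to 15.2) to Fancb (3.43 to 5.42). Fancb and Fancm thus formed a low pair in wild type cells. In Bud31-vKO the order of mean CPM per kb began with Palb2 (14.2), Fancl (12.6) and Brca2 (12.3), and ended with Fancm (4.92), Fanci (4.78) and Fancb (0.0246), and all neighbours overlapped. Fancd2, first in wild type, came after Brca1 (9.75) there, at 8.47 CPM per kb.

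Summed over the 9 genes, the level was 496, 623 and 936 CPM for wild type and 377, 389 and 511 CPM for Bud31-vKO. The sums overlapped, since Bud31-vKO library 3 lay above wild type library 1. The log2 ratio of the group means was -0.69, and -0.37 without wild type library 3. The single genes did not follow 1 pattern over the libraries. Wild type library 3 was the highest for Fancb, Fancd2, Brca1 and Brca2 and the lowest for Fancm and Palb2, while Bud31-vKO library 2 was the lowest for Fanca, Fancb, Fancl and Fanci and the highest for Fancm and Palb2. Both are the libraries with few genes detected, and the part of that in these values was not tested.

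A list of 63 other genes of the pathway, ordered by role, was read beside the 9, and 62 of them could be tested. By edgeR with adjustment over all genes, 0 were called in either direction, and DESeq2 called 0. At an unadjusted p under 0.05 by edgeR there were 2 lower and 1 higher, where 1.82% and 1.08% of all tested genes were. Of the 62, 44 had a log2 fold change below 0, and the median was -0.42. Their summed level was 5010, 4670 and 5930 CPM for wild type and 3700, 4550 and 4430 CPM for Bud31-vKO, with no overlap between the groups. In Bud31-vKO library 2, 11 of the 63 had at most 3 reads, and in wild type library 3 there were 5, against 0 or 1 in the other 4 libraries.

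Lower in every Bud31-vKO library were 11 of the 62 (17.7%, where 6.39% of all tested genes were), and higher in every one were 2 (4.76% of all). The same held for 7 of 22 genes of S phase and mitosis, 2 of 9 of end joining and 2 of 9 germ cell markers. Lower values in every Bud31-vKO library were thus not particular to the pathway. The pathway genes with no overlap are named after their values were seen. They include the nucleases that cut joint molecules, Gen1 (20.3, 34.4 and 32.7 CPM for wild type, 1.38, 0 and 2.42 for Bud31-vKO), Mus81 and its partner Eme1. Gen1 had a log2 fold change of -4.51 (standard error 1.73), with an unadjusted p of 0.0317 and an adjusted p of 0.9997 by edgeR. Xrcc3, which acts in strand exchange, had 24.7, 20.3 and 79.8 CPM for wild type and 17.7, 1.99 and 0.294 CPM for Bud31-vKO. Others were the BRCA1-A subunits Babam1 and Abraxas1, the BRCA2 partner Hsf2bp and the checkpoint kinase Chek1. Of these 11 genes, 5 had at most 3 reads in Bud31-vKO library 2. Without wild type library 3 and Bud31-vKO library 2, 18 of the 62 (29.0%) were lower in both remaining Bud31-vKO libraries, where 20.2% of all tested genes were.

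The 2 genes higher in every Bud31-vKO library were no larger a share of the list than of all tested genes. Rev3l, the catalytic subunit of a polymerase that copies past lesions, had 95.8, 41.7 and 72.5 CPM for wild type and 162, 145 and 131 CPM for Bud31-vKO (log2 fold change 1.06, standard error 0.41, unadjusted p = 0.0324 and adjusted p = 0.9997 by edgeR). Ercc4, a subunit of the nuclease that unhooks crosslinks, had 8.19, 19.9 and 2.89 CPM for wild type and 26.1, 93.8 and 29.7 CPM for Bud31-vKO, a log2 fold change of 2.27 (standard error 0.99).

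By role, the median log2 fold change was -0.36 over the 9 other genes of the core complex and its anchor, with 7 below 0. The 2 of highest mean level among them were Faap20 (log2 fold change -0.13, standard error 0.51) and Faap100 (-1.19, standard error 1.54, with no read in Bud31-vKO library 2). The 4 genes that add or remove the ubiquitin of the pair or act beside it had a median of -0.06, with Rfwd3 at -0.43 (standard error 0.34) and the deubiquitinase Usp1 at 0.15 (standard error 0.39). The 8 genes of unhooking and bypass had a median of -0.15, where the helicase Brip1 stood at 0.39 (standard error 0.67). Over the 15 genes of strand exchange the median was -0.41, with Sfr1 at -0.35 (standard error 0.28).

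End resection and RPA, with 9 genes, had a median of -0.60. The 2 of highest mean level over all 6 libraries were Rpa2 at -0.04 (standard error 0.34) and the MRE11 partner Rad50 at 0.09 (standard error 0.60), and Rpa1, nearly as abundant as Rad50 (162 against 163 CPM) and added after its values were seen, had -1.52. The 5 genes of the BRCA1-A complex had a median of -0.76, with Uimc1 at 0.45 (standard error 0.58) and Babam1 at -1.84 (standard error 1.41, with 1 read in Bud31-vKO library 2). Junction resolution had the lowest median, -1.34 over 7 genes, in which the helicase Blm stood at 0.67 (standard error 0.41) and Eme1 at -3.51 (standard error 1.68). The median gene was Rmi1 (standard error 1.66). In Bud31-vKO library 2, Gen1, Eme1, Rmi1 and Rmi2 of this list had 0, 0, 1 and 0 reads, while Blm, Top3a and Mus81 had 1545, 1108 and 20. The 5 tested genes of damage signalling had -0.44, with Topbp1 at 0.19 (standard error 0.36) and the kinase Atr at 0.04 (standard error 0.38).

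**Figure D3:**
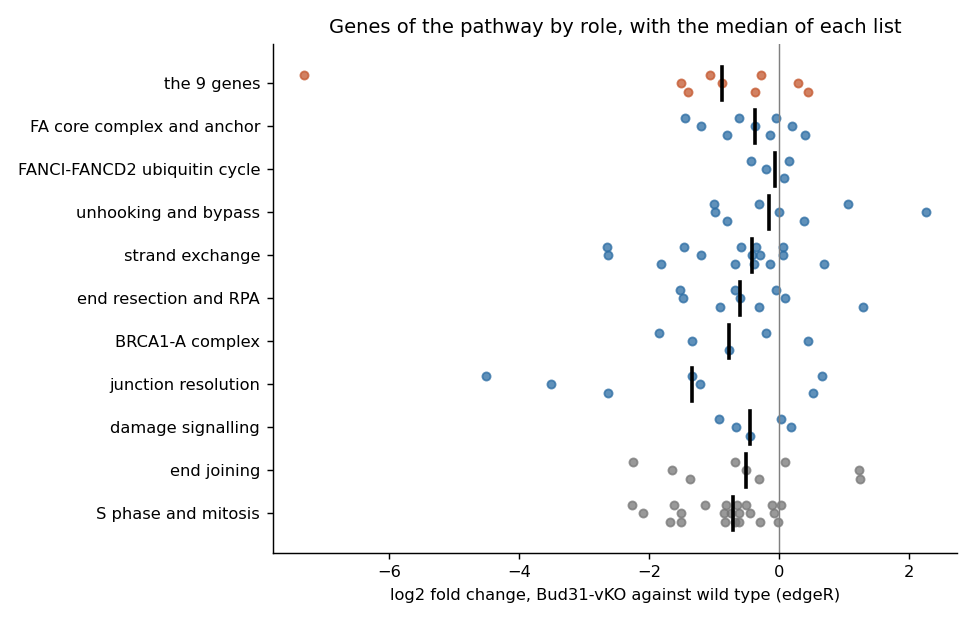
Log2 fold change, Bud31-vKO against wild type (x axis, edgeR), of the 9 genes (orange), of the other pathway genes by role (blue) and of the comparison lists (grey), each point a gene and each black bar the median of its list. Medians of the role lists lie between -1.34 and -0.06, and Fancb at -7.31 is apart from all other points.

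Lists outside the pathway lay on both sides of 0. The 9 genes of end joining, the other main way to mend breaks, had a median log2 fold change of -0.51 with 6 below 0, and Xrcc5 and Rif1, of highest mean level over all 6 libraries, had -0.51 (standard error 0.39) and 0.10 (standard error 0.35). Xrcc6, the most abundant of them in wild type and added after its values were seen, had 112, 105 and 266 CPM for wild type and 37.0, 30.1 and 86.3 CPM for Bud31-vKO, with no overlap and a log2 fold change of -1.65 (unadjusted p = 0.0223 and adjusted p = 0.9997 by edgeR). The 22 genes of S phase and mitosis had a median of -0.70 with 21 below 0, among them the replicative helicase genes Mcm2 at -0.73 (standard error 0.42) and Mcm6 at -0.62 (standard error 0.53). None was called by edgeR over all genes. At an unadjusted p under 0.05 by edgeR 5 were lower and 0 higher, where 1.82% and 1.08% of all tested genes were. DESeq2 called 1 lower (0.2% of all), Cdk2, a kinase of the entry into S phase that is named here after its values were seen. Their summed level was 4350, 5570 and 7920 CPM for wild type and 1900, 5020 and 3560 CPM for Bud31-vKO. Wild type library 3 was the highest and Bud31-vKO library 1 the lowest in this sum, as in that of the 9 genes. Each of the 9 germ cell markers had a negative log2 fold change (median -0.82). Sertoli cell markers had a median of 1.01 (7 of 8 tested above 0) and lymphocyte markers one of 1.74 (6 of 7 above 0). Medians of the other cell types rested on few tested genes. For erythroid and endothelial markers they were 0.93 and 0.85 (3 of 4 genes tested in each). For Leydig markers the median was 0.62 (2 of 5 tested). Peritubular myoid and macrophage markers had 0.25 and 0.14 (3 of 4 tested in each). Mean sums were lower in Bud31-vKO for peritubular myoid (191 against 365 CPM) and macrophage markers (30.7 against 39.2 CPM). They were higher for Sertoli, lymphocyte, endothelial, erythroid and Leydig markers, and the groups overlapped in each of these sums. The part of cell cycle and germ cell content in the levels of the 9 genes was not tested.

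**Figure D4:**
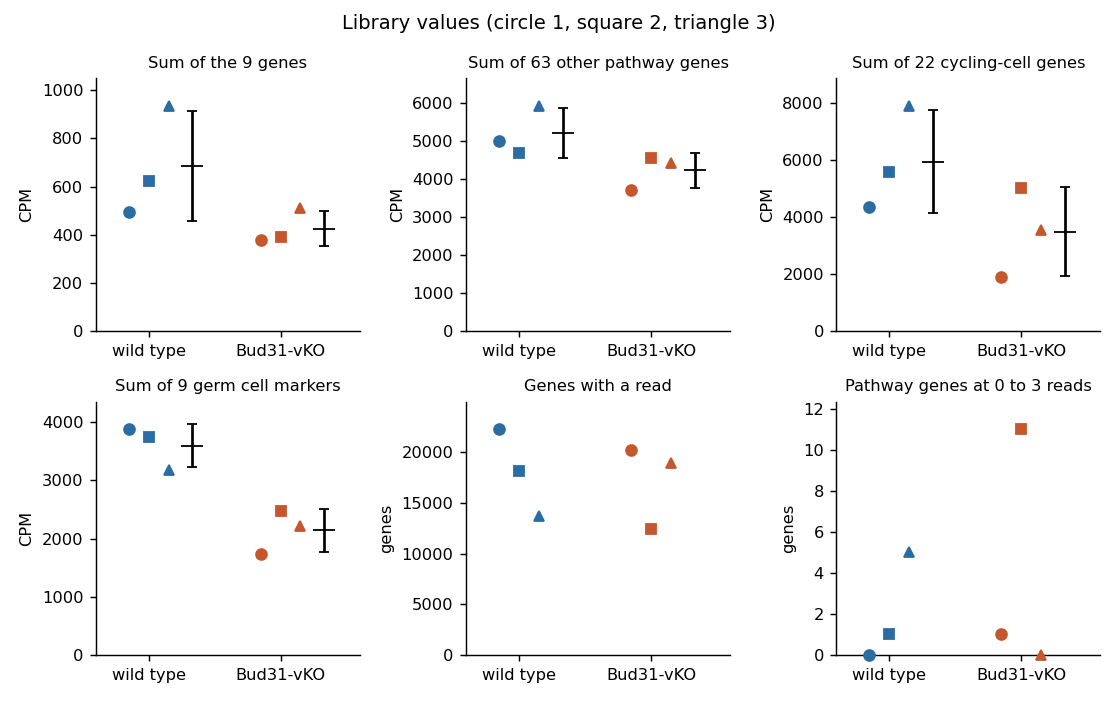
Values per library (y axes, linear from 0) for wild type (blue) and Bud31-vKO (orange), with the mean and SD of each group of 3 in black for the summed levels. The sum of the 9 genes overlaps between the groups, the sums of the other pathway genes and of germ cell markers do not, and Bud31-vKO library 2 has the fewest genes with a read and the most pathway genes at 3 reads or fewer.

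Over the 6 libraries, the 5 genes whose log2 CPM was most like the mean of the 9 standardised profiles were Ino80e (Pearson's r = 0.997), Pi15 (0.993), Hspd1 (0.991), Aimp2 (0.987) and Iws1 (0.986). They are the highest of 6844 genes searched. These are descriptions over 6 libraries that share their depth and makeup with the 9 genes. Hspd1, a mitochondrial chaperone, measured 680, 777 and 855 CPM for wild type and 427, 330 and 612 CPM for Bud31-vKO. Among the 9 genes themselves, r over the 6 libraries ran from 1.0 for Fanca with Fanci, which share the near loss in Bud31-vKO library 2, to -0.81 for Palb2 with Brca2.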

How the data were processed

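Sorted cells of 3 wild type and 3 Bud31-vKO libraries were compared. The deposited values are raw read counts per Ensembl gene, as their whole numbers and unequal totals show. The submitters' processing notes name bcl2fastq and the build mm10. The sources used here do not name an aligner, a counting tool, an annotation release or a strand setting. Column letters were read as genotypes from the rule that defines the gene set and column numbers as the numbers in the sample titles. The RNA immunoprecipitation profiles were not analysed here.

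Symbols were found for 51633 identifiers (99.5%). Coordinates, exons and lengths came from GENCODE M21 on GRCm38. In edgeR 4.0.16, filterByExpr with a minimum count of 10 and a minimum total of 15 left 15240 genes, and these were scaled by TMM and compared by the quasi-likelihood test with no covariates. The common biological coefficient of variation was 119%. Standard errors are the log2 fold change divided by the root of F. DESeq2 1.42.0 and limma 3.58.1 (voom) were alternatives, with other scalings, filters, a block for the library number and libraries left out. Log2 CPM used a prior count of 2. Analyses ran in R 4.3.3 and Python 3.11.15 and were tested on simulated data.

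The members and lists were chosen with earlier results of these data known. Named were the 9 genes, Bud31, the 2 most abundant genes of each list, genes sharing a start region (1000 bases) or exons with a member, and the 5 most like them in pattern at a mean of 4 or more log2 CPM. Genes marked as such were added after their values were seen. Some named or counted genes are not reported here.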

Additional observations from a re-analysis of the deposited data

How the results depend on the processing

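Of 15 alternatives, edgeR's count of 0 called genes became 7 with no filter on low counts and 47 with DESeq2, and was 0 in the other 13. Of the other pathway genes 0 were called in any. The median log2 fold change of the 9 genes was -1.05 to -0.31 as each library was left out and -0.33 without both wild type library 3 and Bud31-vKO library 2, where Brca2 turned to 0.00 and Brca1, Fanca and Palb2 had -0.38, -0.33 and 0.01. That of the other pathway genes ran from -0.51 to -0.34. With limma-voom Fanca and Fanci had -2.79 and -4.10. Other pathway genes lower in every Bud31-vKO library, a count added after seeing the data, numbered 13 to 20 of 62 as each library was left out. That was 21% to 32.3%, where 9.82% to 12.7% of all tested genes were. In those 4 remaining libraries 18 were lower (29%, against 20.2% of all), fewer libraries allowing more such genes.

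The library numbers were not shown to pair the libraries. Deviations from the group means correlated with r of 0.191, 0.041 and -0.076 for same-numbered libraries 1 to 3. With the number as a replicate block 0 genes and 0 other pathway genes were called, the medians were -0.73 for the 9 genes and -0.48 for the other pathway genes, Fancb had -7.66 and Fanca -1.59. A level of 3 reads equals 0.165 to 0.220 CPM, so differences under it were not detectable, and groups of 3 were too small to test single libraries as outliers.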
